A study of Mus musculus with 6 samples.

Results

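The 30 genes described here encode the enzymes and regulators with which a cell makes cholesterol and fatty acids. They were chosen by symbol from the 20018 genes named on the array, with earlier results of these data known. Of them, 28 were measured well enough to be tested. The other two, Insig1 and Fads2, each had 1 probe, which stayed near background on all arrays. RNA came from red pulp macrophages, the splenic cells that engulf worn-out red blood cells and recycle their iron, in a study of Bach2 in heme and iron handling. Flow cytometry was used to isolate the cells from 3 wild-type and 3 Bach2 KO mice on the C57BL/6 strain, aged 8 to 9 weeks, and no treatment is named for either genotype. The mouse of wild-type replicate 3 was a female, and the others were males. The sources used here do not say how the Bach2 allele was made, in which cells it is lost or which surface markers defined the sort.

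Cholesterol is built from acetyl-CoA, first through mevalonate to farnesyl diphosphate, then through squalene and lanosterol to the sterol itself. Fatty acid synthesis draws on the same acetyl-CoA, which is carboxylated, assembled into palmitate, lengthened and desaturated. Both routes are governed by the SREBP transcription factors, which are held in the endoplasmic reticulum by INSIG proteins when sterols are plentiful and released to the nucleus when they run short. Red pulp macrophages take in large amounts of red cell membrane, and with it cholesterol.

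SREBP proteins bind sterol regulatory elements in the promoters of these genes, usually beside CCAAT boxes bound by NF-Y, and BACH proteins bind Maf recognition elements. RefSeq promoter windows of assembly GRCm38.p6, which run from 250 bases before a transcription start to 50 after it, were found for 23 of the 30 genes (28 windows, since some genes have more than 1 start). Exact letters were searched on both strands. TCANNCCAC, a sterol regulatory element, was in 3 of the 28 windows (10.7%), those of Hmgcs1, Acly and Elovl5, and in 4.18% of all 32851 windows. CCAAT was in 20 of the 28 windows (71.4%) and in 37.4% of all windows. CACGTG, the E-box, was in 5 windows (17.9%) against 7.15% of all. TGANTCAGC, a Maf recognition element, was in 1 window (3.57%), that of a Dhcr7 start, against 1.19% of all. A match describes letters only, and the arrays measured neither binding nor start site use.

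The stretches below are read 5′ to 3′ on the gene's strand. The first 3 end at the base before the start, and capitals mark TCANNCCAC or CCAAT on either strand (ATTGG is CCAAT read on the other strand, and in Fasn a pair of CCAAT boxes overlap). Hmgcs1 is shown because it holds both kinds of element, as the windows of Acly and Elovl5 also do. Mvd is shown because its genotypes did not overlap. Fasn is shown because it had the lowest limma p among the 28 genes, on signal close to background. Hmgcs1 is at chr13:119690101-119690350, plus strand, Mvd at chr8:122443423-122443672, minus strand, and Fasn at chr11:120824548-120824797, minus strand.
Hmgcs1: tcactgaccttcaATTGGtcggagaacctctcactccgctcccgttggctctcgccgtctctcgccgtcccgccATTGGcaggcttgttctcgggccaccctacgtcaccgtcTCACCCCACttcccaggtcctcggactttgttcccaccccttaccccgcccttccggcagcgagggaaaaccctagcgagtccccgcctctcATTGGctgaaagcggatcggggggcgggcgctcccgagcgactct
Mvd: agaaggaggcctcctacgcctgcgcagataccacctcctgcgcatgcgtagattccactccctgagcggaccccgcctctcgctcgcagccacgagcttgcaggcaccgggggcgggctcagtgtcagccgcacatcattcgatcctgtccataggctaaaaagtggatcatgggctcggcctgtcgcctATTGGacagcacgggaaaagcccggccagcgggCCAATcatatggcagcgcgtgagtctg
Fasn: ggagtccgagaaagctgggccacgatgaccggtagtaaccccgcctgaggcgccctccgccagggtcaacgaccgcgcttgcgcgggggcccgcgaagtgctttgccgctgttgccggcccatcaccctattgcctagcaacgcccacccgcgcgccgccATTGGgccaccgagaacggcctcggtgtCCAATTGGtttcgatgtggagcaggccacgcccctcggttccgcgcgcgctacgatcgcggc

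The sterol regulatory element began at base -137 relative to the start in Hmgcs1 and at base -158 in Acly. In Elovl5 it began at base 15 of the transcript. Acly is shown at chr11:100528124-100528183, minus strand, and Elovl5 at chr9:77917369-77917398, plus strand. The Maf recognition element of Dhcr7, here the only capitals, began at base -106 relative to the start and is shown at chr7:143830083-143830142, plus strand.
Acly: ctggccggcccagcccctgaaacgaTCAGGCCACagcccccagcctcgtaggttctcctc
Elovl5: gacgtcacggTCAGCCCACgccggggttga
Dhcr7: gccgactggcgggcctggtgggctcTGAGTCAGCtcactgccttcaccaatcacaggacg

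Each mouse gave 1 single-colour array. A level is log2 of the processed signal minus the array's 75th percentile, so 0 is a probe at that percentile and each unit is a doubling. Levels of different probes are not compared. The share of spots well above background ran from 37.5% to 51.5% over the arrays, and the 75th percentile itself from 865.2 (wild-type replicate 3) to 3172.1 (knockout replicate 3). All wild-type arrays lay in 1 row of the slide and all knockout arrays in the other, so effects of row and of genotype cannot be told apart. The slide has 3 array columns with a wild-type and a knockout mouse in each, and the replicate number is also the column. Differences are knockout minus wild type with the standard error from limma. The median difference of all 18389 tested genes and transcripts was -0.11, and it was 0.015 when arrays were centred on their medians, so a member's difference is to be read against that shift.

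The deleted gene was read in every sample first. The brighter Bach2 probe read -1.09, -0.21 and -1.53 in wild type and -2.42, -3.90 and -1.41 in knockout. Knockout replicate 3 thus lay within the wild-type range. The sources do not place the probe relative to the deleted part, so it does not check the labels.

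No synthesis gene passed the test for a difference between genotypes. At an adjusted p of 0.05 limma called 0 of the 28, as it called 0 of all tested genes (0%), and the adjusted p of every one of the 28 was 0.9999. At an unadjusted limma p under 0.05 there were 0 of 28, against 235 of all genes (1.28%). Of the 28, 10 had a higher mean in knockout and 18 a lower one, but 14 lay above and 14 below the median of all genes, and after median centring 14 were above 0. Their median difference was -0.10, which is 0.0068 above that of all genes. In 22 of the 28 the difference was smaller than its own standard error. The median size of the difference was 0.20 for the 28 and 0.29 for all genes, beside median standard errors of 0.51 and 0.54. In bulk RNA such as this, fewer cells of a type and less RNA per cell cannot be told apart.

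The precision leaves room for moderate changes. Standard errors ran from 0.42 to 0.76 and half-widths of the 95% intervals from 0.96 to 1.74, about a doubling or more. The interval excluded a 2-fold higher level in knockout for 14 of the 28 genes and a 2-fold lower level for 5. Over all 18389 tested genes and transcripts these counts were 7249 and 3404. Only 1 gene, Sqle, had every knockout array above every wild-type array, where 1.17% of all genes did, and only 1, Mvd, had every knockout array below, where 1.93% did. A single gene of 28 on each side cannot be set apart from those shares.

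**Figure D1:**
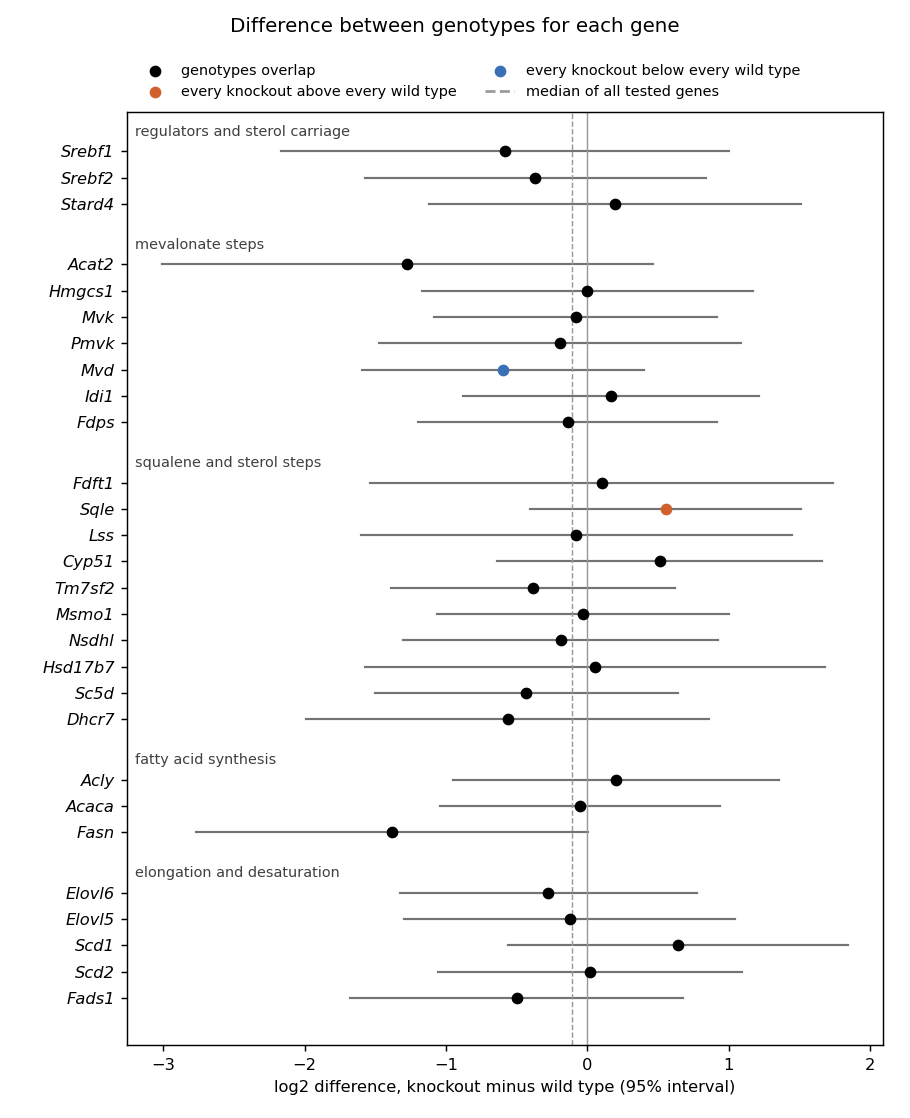
Log2 difference between genotypes (knockout minus wild type, x axis) for the 28 tested genes grouped by role (y axis). Points are limma estimates from 3 mice a genotype and bars their 95% intervals. Each interval includes 0, the one of Fasn by the least (-2.77 to 0.0053), and the dashed line is the median of all tested genes at -0.11.

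Among the regulators, Srebf1, which encodes the SREBP-1 proteins that drive fatty acid synthesis genes, read -2.22, -0.69 and -0.67 in wild type and -2.92, -1.71 and -0.71 in knockout. Its difference was -0.59 ± 0.69 (SE), and ran from -1.12 without knockout replicate 3 to -0.018 without knockout replicate 1. Both replicate 1 arrays were the low ones, and the knockout gave signal well above background on 2 of 3 arrays.

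Srebf2, which encodes SREBP-2, the main activator of cholesterol synthesis genes, read 2.96, 3.36 and 4.59 in wild type against 3.09, 3.32 and 3.40 in knockout. Wild-type replicate 3 stood above the other 5 arrays, which lay close together. The difference was -0.37 ± 0.53 (SE), and 0.11 without that mouse. Its dimmer probe, with wild-type values of -0.21, -1.34 and -0.51 and knockout values of -1.09, -0.78 and -0.70, did not show that array apart.

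Insig1, whose product retains the SREBPs in the endoplasmic reticulum and is itself a target of them, read -2.99, -5.49 and -3.09 in wild type and -4.11, -3.97 and -5.89 in knockout. All 6 readings were not well above background and therefore only bound its level from above. Stard4, a soluble carrier that moves cholesterol between membranes, read 1.95, 1.28 and 1.003 in wild type and 1.86, 0.58 and 2.36 in knockout. The knockout mice spanned the wild-type range on both sides, with a difference of 0.19 ± 0.57 (SE).

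The mevalonate steps begin with Acat2, which joins acetyl-CoA units in the cytosol. Its wild-type arrays read -0.66, -0.86 and 1.53, and its knockout arrays -1.08, -0.46 and -2.27. Besides 4 arrays between -1.08 and -0.46 there were a high and a low one, and both of those values came from the mice of replicate 3, one of each genotype, in opposite directions. The difference of -1.27 ± 0.76 (SE) became -0.51 without wild-type replicate 3, -0.77 without knockout replicate 3 and -0.0091 without both.

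Mvd, the decarboxylase that makes isopentenyl diphosphate, was the member whose knockout arrays were all lower. Wild type read 0.27, 0.83 and 0.34, and knockout read -0.48, 0.17 and -0.05. The gap was narrow, between wild-type replicate 1 and knockout replicate 2. The difference was -0.60 ± 0.44 (SE), a level 1.51-fold higher in wild type, and was below 0 within each column (-0.74, -0.66 and -0.40). Leaving out 1 mouse at a time gave -0.74 to -0.42.

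Hmgcs1, the synthase of HMG-CoA and a classical SREBP-2 target, had the same mean in both genotypes, 2.73, with an SD of 0.60 over the 3 wild-type mice and of 0.54 over the 3 knockout mice. Its arrays read 2.17, 3.36 and 2.66 against 2.20, 2.70 and 3.29. The 2 replicate 1 mice were again the lowest, and the 95% interval of the ratio of knockout to wild type ran from 0.444 to 2.25. The Hmgcs1 promoter, printed above, carries a sterol regulatory element with CCAAT boxes, and the windows of Acly and Elovl5 also hold both kinds.

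The other mevalonate enzymes differed by less than 1 standard error. The mevalonate kinase Mvk differed by -0.08 (0.044 with median centring) and the phosphomevalonate kinase Pmvk by -0.20. Idi1, the isomerase of isopentenyl diphosphate, differed by 0.16, and Fdps, the farnesyl diphosphate synthase, by -0.14. All 7 genes of these steps were well above background on all 6 arrays.

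Squalene and sterol steps start with Fdft1, squalene synthase, which read 2.46, 0.11 and 0.84 in wild type and 2.02, 1.39 and 0.31 in knockout. Both replicate 1 mice were high and the difference was 0.10 ± 0.71 (SE), small beside a range of 2.36 over the arrays. A second, dimmer Fdft1 probe was well above background on only 2 arrays and was not tested.

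Sqle, squalene epoxidase, catalyses the first oxygen-requiring step and was the member with all knockout arrays higher. Wild type read 1.42, 1.26 and 0.97, and knockout read 1.51, 1.97 and 1.83. The lowest knockout array exceeded the highest wild-type array by little, and both were replicate 1 mice. The difference was 0.55 ± 0.42 (SE), a level 1.47-fold higher in knockout, with within-column values of 0.085, 0.71 and 0.86 and 0.43 to 0.68 when 1 mouse was left out. Mvd and Sqle stood on opposite sides, but neither separation can be set apart from the shares over all genes given above.

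Cyp51, the lanosterol demethylase, read -1.39, -1.39 and -1.11 in wild type and -1.65, -0.45 and -0.26 in knockout. Knockout replicate 1 was the lowest array and the other knockout arrays were the highest, and the difference of 0.51 ± 0.50 (SE) became 0.94 without knockout replicate 1 and 0.25 without knockout replicate 3. Sc5d, the desaturase that makes the substrate of Dhcr7, read 1.62, 2.68 and 2.10 against 1.79, 1.34 and 1.97. Its difference was -0.43 ± 0.47 (SE), carried by wild-type replicate 2 and knockout replicate 2, the highest and lowest arrays, and it was -0.16 without the former.

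Dhcr7, the reductase that completes cholesterol, read -2.50, -1.13 and -1.12 in wild type and -2.82, -2.50 and -1.13 in knockout, and was well above background on 1 of 3 knockout arrays. The genotypes overlapped, and the difference of -0.57 ± 0.62 (SE) ran from -1.08 without knockout replicate 3 to -0.23 without knockout replicate 1. Tm7sf2, a sterol reductase, read 1.52, 1.52 and 0.81 against 0.64, 1.10 and 0.95. Its difference was -0.39 ± 0.44 (SE), or -0.62 without wild-type replicate 3, and its second probe gave -0.46.

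On the probe used for each gene, the remaining sterol enzymes had differences smaller than their standard errors, which ran from 0.45 to 0.71. Lss, which closes squalene epoxide into lanosterol, differed by -0.08 (0.047 with median centring). Msmo1, a sterol methyl oxidase, differed by -0.03 (0.093 with median centring and 0.041 with quantile normalization), and Nsdhl, which acts after it in removing methyl groups, by -0.19. Hsd17b7, a sterol ketoreductase, differed by 0.055 on its brighter probe and by -0.50 on its other one, the only case in which the tested probes of a gene disagreed in sign. It was 1 of 6 genes with more than 1 tested probe. Lss and Hsd17b7 gave signal well above background on 2 of 3 knockout arrays.

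In fatty acid synthesis, Acly, which cleaves citrate into cytosolic acetyl-CoA, read 3.53, 3.99 and 3.99 in wild type and 3.32, 4.02 and 4.78 in knockout. Knockout mice were both the lowest and the highest, and the difference was 0.20 ± 0.50 (SE). Acaca, the acetyl-CoA carboxylase that commits carbon to fatty acids, differed by -0.05 ± 0.43 (SE), or by 0.073 with median centring, and its 6 arrays spanned 0.75.

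Fasn, the fatty acid synthase that assembles palmitate, had the lowest p among the 28 genes. Wild type read -1.55, -2.50 and -2.15, and knockout read -3.52, -4.44 and -2.37. Knockout replicates 1 and 2 lay below all wild-type arrays, while knockout replicate 3 lay inside the wild-type range. The difference was -1.38 ± 0.60 (SE), with an unadjusted limma p of 0.0507 and an adjusted p of 0.9999. Signal was low, and only 1 of 3 knockout arrays read the probe well above background, where all 3 wild-type arrays did. Without knockout replicate 2 the difference was -0.88, and without knockout replicate 3 it was -1.92 with an unadjusted limma p of 0.00989, whereas normexp background correction reduced it to -0.51 with an unadjusted limma p of 0.257. The normexp setting also took median spot signals and added an offset of 50, and the part of each in the smaller difference was not tested. Since 2 knockout readings were not well above background and the size varied between settings, no fold is given.

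Elongation and desaturation finish the fatty acids. Scd1, the stearoyl-CoA desaturase that makes oleate and a target of SREBP-1, read 1.59, 2.31 and 2.34 in wild type and 2.46, 2.13 and 3.57 in knockout. Knockout replicate 3 stood above all other arrays, and the difference of 0.64 ± 0.53 (SE) became 0.22 without it and 0.395 without wild-type replicate 1. Its paralog Scd2 read 3.02, 3.10 and 3.04 against 2.83, 2.60 and 3.78, a wild-type spread of 0.042 (SD, n = 3) and a knockout spread of 0.62 (SD, n = 3), with a difference of 0.018. Knockout replicate 3 was the highest array for Scd2 as well, and whether the probes tell these paralogs apart was not tested.

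Fads1, the front-end desaturase of polyunsaturated fatty acids, read 1.48, 0.73 and 1.48 in wild type and 0.59, 0.11 and 1.48 in knockout. Knockout replicate 3 matched the upper wild-type values, and the difference of -0.50 ± 0.51 (SE) became -0.88 without it and -0.19 without knockout replicate 2. Fads2, which acts before it, ranged from -6.51 to -4.48 over the arrays without being well above background. The elongases Elovl6 and Elovl5, which lengthen palmitate and polyunsaturated chains, differed by -0.28 ± 0.46 and -0.13 ± 0.51 (SE), the latter by 0.014 with quantile normalization.

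**Figure D2:**
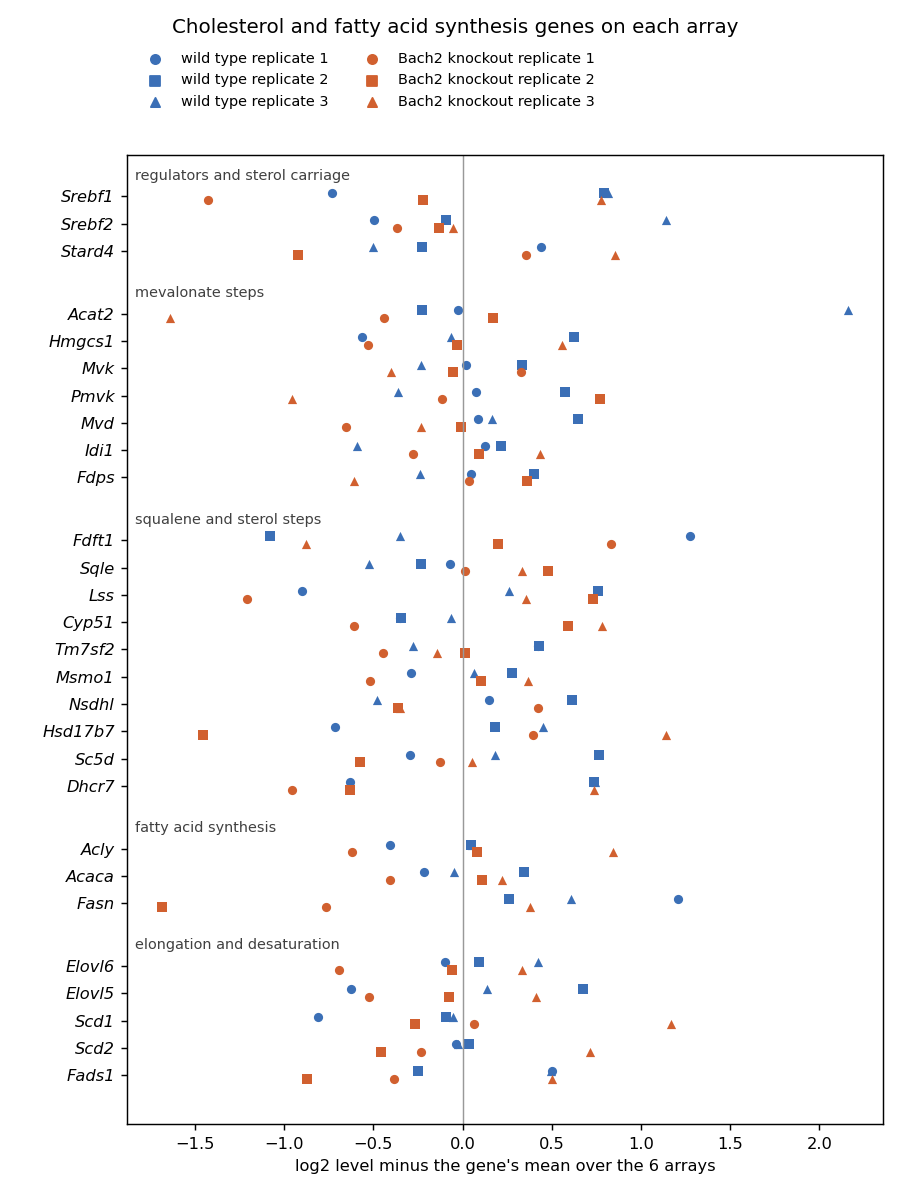
Level of the 28 tested genes on each of the 6 arrays (x axis, log2, centred on each gene's mean over the arrays), grouped by role (y axis). Blue marks are wild type, orange marks knockout, and the shape gives the replicate, which is also the array column. Both genotypes intermix for all genes but Mvd and Sqle, and the widest spread is that of Acat2, 3.80 between its lowest and highest arrays.

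Other genes of the same routes, a list of 33 of which 30 were tested, had no call by limma either (0% of all genes had one). None of the 30 had an unadjusted p under 0.05, against 1.28% of all genes, and the genotypes separated in none, against 1.17% of all genes with knockout above and 1.93% with knockout below. Counts of 0 in 30 do not stand apart from such shares. Of these, 12 had a higher mean in knockout and 18 a lower one, but 14 lay above and 16 below the median of all genes. Their median difference was -0.15, which is -0.036 relative to that of all genes. The smallest limma p among those lower belonged to Nr1h3 (a difference of -0.50 ± 0.45, SE) and Scd3 (-0.54 ± 0.58, SE). Nr1h3 is the oxysterol receptor LXR alpha that induces Srebf1, and Scd3 is another stearoyl-CoA desaturase. Among those higher the smallest limma p belonged to Acss2 (0.48 ± 0.51, SE), which activates acetate to acetyl-CoA, and Lbr (0.68 ± 0.79, SE). Lbr, a lamin-binding protein with sterol reductase activity, had both replicate 1 arrays above the others. The SREBP escort Scap differed by -0.19, and Insig2, the relative of Insig1, was measured and differed by 0.10.

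Variation between the array columns was described and not tested. The share of a gene's variation over the 6 arrays (its sum of squares) that lay between columns had a median of 62.0% over the 28 genes, and the share between genotypes a median of 5.52%. All tested genes gave 62.5% and 6.95%, close to the values of the synthesis genes. A 3-level column is expected to take a larger share than a 2-level genotype even without an effect, though not in every gene. Whether the column shares exceed that expectation was not tested. The column share was the larger in 22 of the 28 (78.6%), against 87.4% of all genes, and the genotype share was the larger in Acat2, Mvd, Sqle, Tm7sf2, Sc5d and Fasn. Within columns 1, 2 and 3 the median knockout minus wild-type difference of the 28 was -0.20, -0.31 and 0.11, with 9, 6 and 16 genes above 0. For all tested genes these medians were -0.13, -0.093 and -0.033. Column 3 paired the female wild-type mouse with a male knockout, and its arrays had the lowest and highest 75th percentiles (865.2 and 3172.1). The part of sex and of array brightness in the column 3 values was not tested.

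Of the 28 genes, 7 (25%) kept 1 sign in all 3 columns, against 22.6% of all genes. They were Srebf1, Mvd, Fdps, Dhcr7, Fasn and Elovl6, lower in knockout, and Sqle, higher in knockout. For Dhcr7 the value in column 3 was -0.0023 and for Fdps that in column 1 was -0.012, so their sign there carries no weight.

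**Figure D3:**
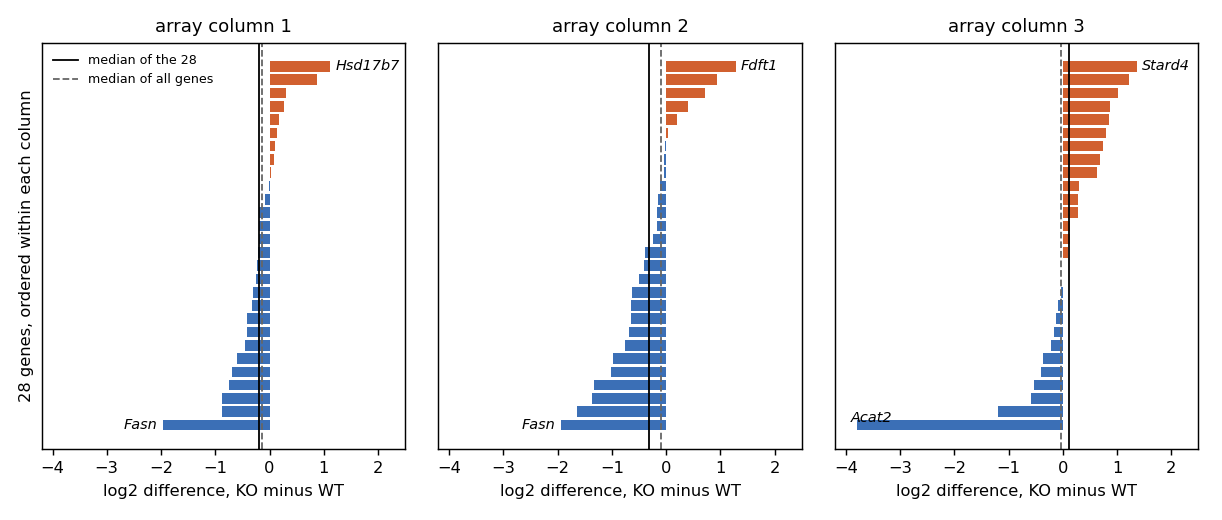
Knockout minus wild-type difference (x axis, log2) of the 28 genes in each array column, sorted within the column (y axis). Orange bars are above 0, blue bars below, with 1 mouse of each genotype per column and so no error. Fasn is lowest in columns 1 and 2 (-1.97 and -1.95) but -0.23 in column 3, where Acat2 is lowest (-3.80) and the median of the 28 (solid line) moves from -0.31 in column 2 to 0.11.

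For a part of these genes, picked by this reading, the mice of column 1 (replicate 1 of each genotype) both had low levels. In 10 of the 28, both replicate 1 arrays lay below the other 4, where 16.7% of all genes did, and in 1 both lay above, where 15.5% did. The 10 were both SREBP genes, Hmgcs1, Lss, Cyp51, Msmo1, Acly, Acaca, Elovl6 and Elovl5, which span regulators, sterol enzymes and fatty acid enzymes, and the 1 was Fdft1. The gap between the mean of column 1 and the mean of the other arrays was widest for Srebf1 (-1.62) and Lss (-1.58), and for Fdft1 it was 1.58 in the other direction. Knockout replicate 1 was the lowest array for 10 genes and the highest for none. Wild-type replicate 1 was the lowest for only 4 and the highest for 2, and knockout replicate 2 was the lowest for 6. Wild-type replicate 2 was the highest for 10 and knockout replicate 3 for 9. Among all genes the lowest array was knockout replicate 1 for 18.4% and the highest was wild-type replicate 2 for 27.7% and knockout replicate 3 for 18.1%.

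Markers of other cells moved with the same arrays. A list of 15 genes of dividing cells scored 1.67 and 1.61 on the wild-type and knockout arrays of column 1 and from -1.49 to 0.26 on the other 4, and all 15 had both column 1 arrays on top. All 6 tested erythroid genes did so too, with scores of 1.82 and 1.54 against -1.60 to 0.43. A score here is the mean of a list's levels after each gene is centred over the arrays, and the 28 synthesis genes scored -0.10 and -0.32 in column 1 and from -0.15 to 0.22 elsewhere. The part of these cells in the column 1 values of the synthesis genes was not tested.

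Between genotypes, all 13 tested T and NK cell genes were higher in knockout by their means, with a median difference of 1.06 and scores of -1.06 to -0.23 in wild type and 0.03 to 1.36 in knockout. All 11 tested red pulp macrophage genes, each well above background on all 6 arrays, were lower by their means, with a median difference of -0.41 and overlapping scores (-0.25 to 0.70 and -0.27 to -0.16). Neutrophil genes were higher in 7 of 8, with scores of -1.38 to 0.32 in wild type and -0.53 to 1.66 in knockout, and 6 of 8 B and plasma cell genes were higher with a median difference of only 0.046. The dividing cell genes were higher in knockout by their means in 15 of 15 (median difference 0.83) and the erythroid genes in 5 of 6 (median difference 0.60), with scores that overlapped between genotypes. None of these marker genes passed the adjusted test. Of all 18389 tested genes and transcripts, 7144 were higher in knockout and 11245 lower. Against the median of all genes, 10 of the 11 macrophage genes were lower. All 13 T and NK cell genes and all 15 dividing cell genes lay above that median. So did 5 of 6 erythroid, 7 of 8 neutrophil and 7 of 8 B and plasma cell genes. The scores of the synthesis genes overlapped between genotypes, at -0.10, 0.22 and 0.14 in wild type and -0.32, -0.15 and 0.20 in knockout, and the part of admixed cells in them was not tested.

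**Figure D4:**
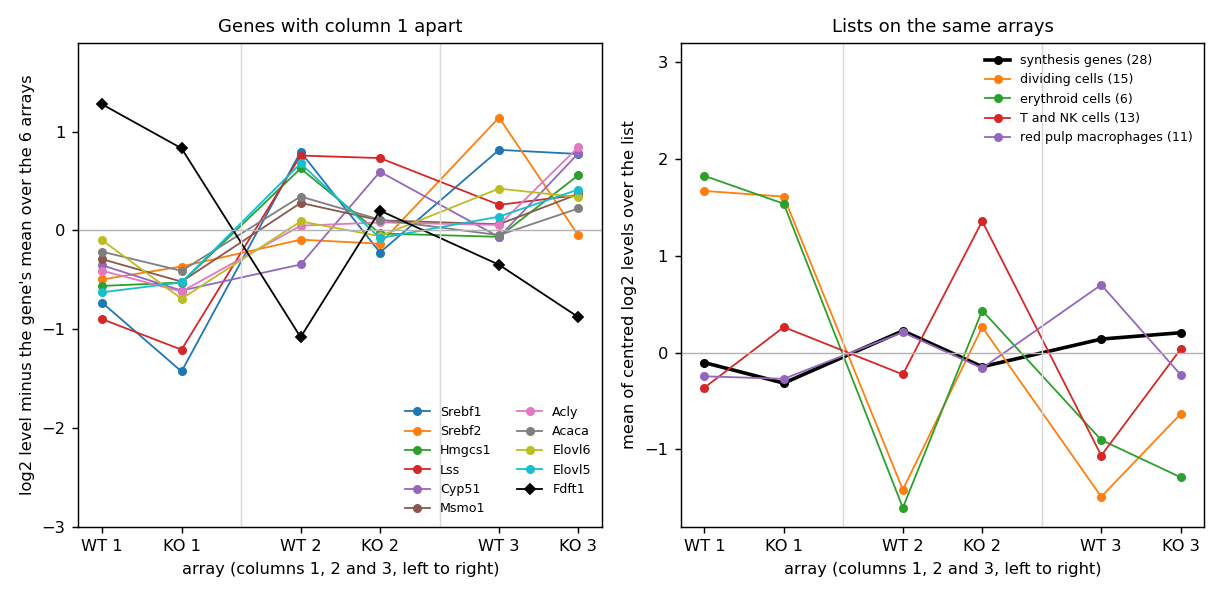
Left, centred log2 level (y axis) on each array (x axis, ordered by column) of the 11 genes for which both column 1 arrays lay apart from the other 4. Right, the score of the 28 synthesis genes and of 4 marker lists on the same arrays. In column 1, 10 genes are low and Fdft1 is high, and there the dividing cell score reaches 1.67 and the erythroid score 1.82 and the synthesis score is -0.10 and -0.32.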

How the data were processed

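RNA from 6 mice (3 per genotype, separate animals) was amplified, labelled with Cy3 and hybridised to 1-colour Agilent arrays. The authors read spot intensity with Feature Extraction, and the submitters' processing notes name version 9.1 where the file headers name 10.7.3.1. The deposited processed intensity is background-subtracted and detrended per the file headers, and not scaled between arrays. The members and gene lists were chosen with earlier results of these data known.

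Control and flagged spots were removed, no spot was saturated, and all arrays shared 1 scan time. Spots of a probe were averaged, and log2 of the intensity minus the array's 75th percentile was taken. Accessions were named through a RefSeq table (GRCm38.p6), 26413 of 55681 probes. Its gene coordinates are not printed, because the array design uses an older build. Probes well above background on at least 3 arrays entered, 1 per gene by highest mean. The genotypes were compared in R 4.3.3 with lmFit and eBayes of limma 3.58.1, Benjamini-Hochberg adjusted over all tested entries, without covariates. The code was tested on simulated data. The number of arrays limits the precision. Promoters came from a RefSeq table of GRCm38.p6.

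All 30 members are accounted for. Values per array are given for the regulators, for members whose genotypes do not overlap and for at least the 2 members of each role with the smallest p, and of the other pathway genes the 2 with the smallest p in each direction are named, with Scap and Insig2 added after their values were seen. Alternatives covered scaling, background correction, the filter, the probe rule, an intensity trend, array column as a block and mice left out. Normexp used median spot signals with an offset of 50, and that and the setting without both mice of column 1 were chosen after seeing the data. The authors' deposited table of selected probes holds no member and was not used.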

Additional observations from a re-analysis of the deposited data

How the results depend on the processing

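In each of 16 alternatives limma called 0 of the tested genes and 0 of the members at an adjusted p of 0.05 (235 of all genes and 0 members at an unadjusted p under 0.05 in the reported setting, 161 in the setting with an intensity trend, 582 with array column as a block and 764 without wild-type replicate 1). The smallest adjusted p of a member in any was 0.998. Fasn had an unadjusted limma p under 0.05 in 4 alternatives, among them array column as a block (0.0303) and the mean over a gene's probes (0.0499). It dropped out and had no value where signal well above background was required on all 6 arrays. The members' median difference ran from -0.28 to 0.054 when 1 mouse was left out, and that of the other pathway genes from -0.26 to 0.046. No labels pair the mice beyond an animal tag shared by both replicate 3 mice, so no other block was run, and the authors' values were not run as an alternative because their table holds no member.

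The sign turned under at least 1 of the 16 alternatives in 17 of the 28 members and under none that gave a value in 11, and the cause was not tested. Median centring gave Mvk 0.044, Lss 0.047, Msmo1 0.093 and Acaca 0.073. Quantile normalization gave Msmo1 0.041 and Elovl5 0.014, and normexp gave Hmgcs1 -0.028 and Lss 0.051. The mean over probes gave Hsd17b7 -0.22. Leaving out both mice that share the tag (replicate 3) gave Srebf2 0.045, Stard4 -0.39, Hmgcs1 -0.31, Pmvk 0.0027, Idi1 -0.27, Hsd17b7 -0.26, Acly -0.089 and Scd2 -0.34. Leaving out both mice of column 1 gave Hmgcs1 -0.016, Lss 0.037, Msmo1 0.065, Hsd17b7 -0.47 and Acaca 0.018. With 1 mouse left out, differences ran from -0.71 to 0.11 for Srebf2, -0.19 to 0.70 for Stard4, -0.28 to 0.31 for Hmgcs1, -0.27 to 0.099 for Mvk, -0.63 to 0.23 for Pmvk and -0.090 to 0.35 for Idi1. They ran from -0.36 to 0.13 for Fdps, -0.41 to 0.77 for Fdft1, -0.55 to 0.51 for Lss, -0.22 to 0.22 for Msmo1, -0.48 to 0.069 for Nsdhl and -0.50 to 0.80 for Hsd17b7. They ran from -0.17 to 0.56 for Acly, -0.18 to 0.14 for Acaca, -0.51 to 0.00060 for Elovl6, -0.47 to 0.18 for Elovl5 and -0.34 to 0.25 for Scd2. With no filter, Insig1 and Fads2 entered and were not called, and requiring signal on all 6 arrays left 23 members.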
